A study of Mus musculus with 8 samples.

Results

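The genes described here are the E2F transcription factors and the retinoblastoma (pocket) proteins that bind them, 10 genes taken by name: E2f1, E2f2, E2f3, E2f4, E2f5, E2f7, E2f8, Rb1, Rbl1 and Rbl2. They are 10 of 48440 entries in the count table, and all 10 were among the 13771 genes with enough reads to be tested. They were followed in heart muscle cells (cardiomyocytes) isolated at postnatal day 2 from C57BL6/J mice. There were 8 libraries from 4 litters, with a male and a female heart per litter, and the labels name no treatment or genetic alteration. The labels do not give the day of isolation or sequencing, so litter cannot be told apart from anything that was shared by both hearts of a litter. Only cells that survive isolation were measured, and how they were purified is not given in the sources used here.

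The activator E2Fs (E2f1, E2f2 and E2f3) switch on genes for DNA replication and for entry into S phase, while E2f4 and E2f5 mostly work as repressors together with the pocket proteins. The pocket protein Rb1 binds mainly activator E2Fs until cyclin-dependent kinases phosphorylate it. Rbl1 (also called p107) and Rbl2 (p130) bind mainly E2f4 and E2f5, Rbl1 in cycling cells and Rbl2 in resting cells, where it is part of the DREAM complex that silences cell cycle genes. E2f7 and E2f8 are atypical repressors that bind DNA without a pocket protein and curb E2F targets late in S phase. Mouse cardiomyocytes stop dividing in the days after birth, so the balance among these genes bears on cells that are leaving the cell cycle.

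Several of these genes are themselves known E2F targets, and 5 promoters are shown to set the 4 that carry an E2F word beside that of Rbl2, which does not. Whether the word bears on direction was not tested, and in litter 3, described below, genes with and without it went both ways. E2f2, E2f7 and Rbl1 have it and were lower there, as were E2f1 and E2f8, whose windows lack it. E2f3, which has it, was higher there, a small call lost with DESeq2, and Rbl2, without it, was higher too. The window of E2f1 lies inside the gene as GENCODE M21 draws it. RefSeq gave the sequence from 250 bases before to 50 bases after a transcription start for 7 of the 10 genes on GRCm38.p6, and none was at hand for E2f4, E2f5 and Rb1. Each is written 5′ to 3′ on the strand of the gene, in lower case with E2F words in capitals. The E2F words searched, on both strands, were TTTCCCGC, TTTCGCGC, TTTGCCGC and TTTGGCGC.
E2f2, first start, chr4:136172024-136172323, plus strand: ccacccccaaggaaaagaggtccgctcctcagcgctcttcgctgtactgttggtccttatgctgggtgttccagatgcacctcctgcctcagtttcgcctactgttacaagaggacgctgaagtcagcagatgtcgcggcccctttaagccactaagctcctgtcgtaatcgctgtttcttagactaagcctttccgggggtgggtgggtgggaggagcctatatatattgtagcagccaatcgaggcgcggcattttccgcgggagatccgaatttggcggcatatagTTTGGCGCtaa
E2f3, first start, chr13:29986014-29986313, minus strand: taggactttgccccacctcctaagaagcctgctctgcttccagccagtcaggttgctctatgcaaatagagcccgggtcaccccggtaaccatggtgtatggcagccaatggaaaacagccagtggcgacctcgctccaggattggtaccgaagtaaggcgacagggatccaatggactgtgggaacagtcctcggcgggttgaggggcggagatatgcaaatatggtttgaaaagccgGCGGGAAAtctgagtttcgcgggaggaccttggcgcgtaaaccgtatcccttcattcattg
E2f7, chr10:110745189-110745488, plus strand: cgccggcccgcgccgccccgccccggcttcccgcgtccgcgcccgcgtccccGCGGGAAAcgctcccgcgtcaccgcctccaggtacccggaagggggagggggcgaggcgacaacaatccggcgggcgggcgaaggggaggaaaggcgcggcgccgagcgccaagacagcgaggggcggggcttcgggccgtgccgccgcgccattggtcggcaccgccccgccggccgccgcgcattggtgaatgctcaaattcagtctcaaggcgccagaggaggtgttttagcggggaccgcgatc
Rbl1, chr2:157204485-157204784, minus strand: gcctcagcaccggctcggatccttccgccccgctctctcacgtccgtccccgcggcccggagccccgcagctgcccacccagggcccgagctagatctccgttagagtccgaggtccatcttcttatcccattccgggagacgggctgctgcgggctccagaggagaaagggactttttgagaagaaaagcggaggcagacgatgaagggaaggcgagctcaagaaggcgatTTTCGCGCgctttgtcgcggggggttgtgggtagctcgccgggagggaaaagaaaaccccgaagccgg
Rbl2, chr8:91069807-91070106, plus strand: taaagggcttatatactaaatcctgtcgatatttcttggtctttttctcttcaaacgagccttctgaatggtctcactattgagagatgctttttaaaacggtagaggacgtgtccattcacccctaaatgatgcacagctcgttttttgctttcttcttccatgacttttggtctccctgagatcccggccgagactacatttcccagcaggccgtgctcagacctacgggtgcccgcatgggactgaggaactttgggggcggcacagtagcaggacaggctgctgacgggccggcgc

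The word began 18 bases before the start in Rbl1 and 11 bases before it in E2f3, 198 bases before it in E2f7, and 40 bases after it in E2f2. The windows of E2f1, E2f8 and Rbl2 and the second starts of E2f2 and E2f3 held none, which says only that these letters are not in these windows. In E2f1 the RefSeq window lies inside the gene as GENCODE M21 draws it, downstream of that annotation's start. In E2f2 the first window, its E2F word included, ends before the GENCODE M21 gene begins, so it is after the RefSeq start only. An E2F word stood in 4 of the 7 genes with a window (57.1%), in 2.26% of all 32851 RefSeq promoters and in 4.7% of the 9866 tested genes that had one. The CHR, TTTGAA on either strand, is the word through which DREAM and Myb complexes reach late cell cycle genes. It stood 31 bases before the second start of E2f2, 23 before the first start of E2f3, 20 before E2f8 and 201 before Rbl2, against 17.9% of all promoters, and it overlapped no E2F word.

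Total counts ran from 14226342 to 24910243 per library, and levels below are CPM, which are counts brought to a common depth. Xist had 15865 to 31331 counts in females and 15 to 124 in males, as the labelled sexes require. Markers of cardiomyocytes summed to 61700 (male) and 61400 CPM (female) in litter 3 and to between 66300 and 77300 in the other 6 libraries. Fibroblast markers summed to 51.8 and 32.4 CPM in litter 3 against 108 to 243 elsewhere, and endothelial markers to 20.1 and 22.4 against 19.6 to 179. Summed atrial markers stood at 1310 and 1610 CPM in litter 3 against 210 to 834, with 1 of 6 called higher and 1 lower, and erythroid markers at 529 and 184 CPM against 97.7 to 243, with 2 of 5 called higher. Of 6 macrophage genes, 4 had no count in at least 1 library.

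By level per kilobase of exon, E2f4 was the most abundant of the 10 genes, at 11.3 ± 0.728 CPM per kilobase (SD, n = 8 here and for the other levels of this kind). Rbl2 followed at 7.18 ± 1.75, which made it the most abundant pocket protein transcript. E2f1 (4.36 ± 1.49), Rb1 (4.3 ± 0.343) and E2f3 (3.68 ± 0.632) came next and did not differ from each other beyond their spread. Rbl1 at 2.49 ± 0.975 and E2f5 at 2.41 ± 0.131 CPM per kilobase were also within their spread of each other, and E2f8 stood at 1.34 ± 0.328. E2f2 at 0.443 ± 0.193 and E2f7 at 0.416 ± 0.207 CPM per kilobase were the least abundant and overlapped. Measured on the longest transcript instead of all exons, E2f4 had 13.8 and Rb1 5.55 CPM per kilobase and Rbl2 was again second, and Rb1 then stood above E2f1 and E2f7 above E2f2. The levels thus put a repressor E2F and the pocket protein of resting cells first, and an atypical repressor and an activator last.

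**Figure D1:**
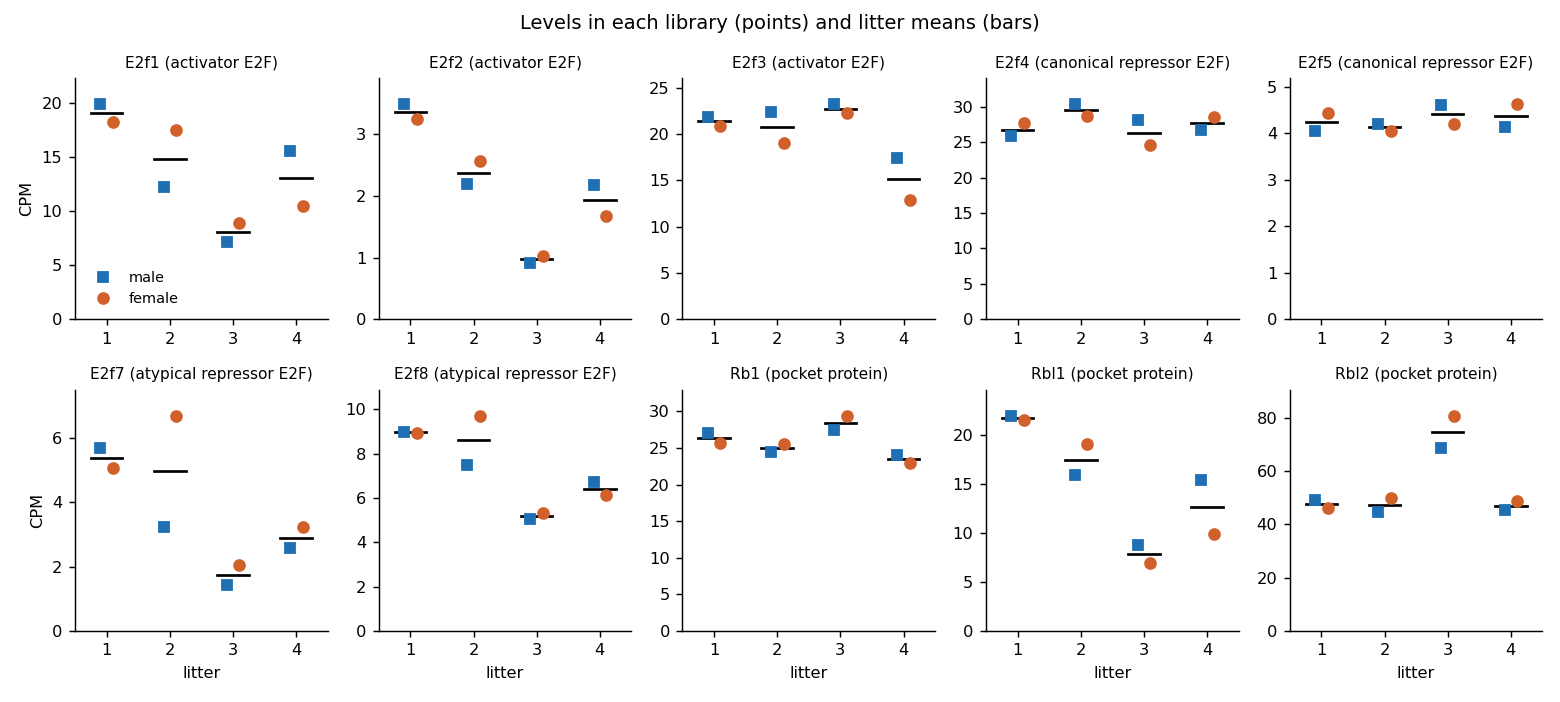
CPM (vertical axes, starting at 0) of each of the 10 genes in each library, by litter (horizontal axes). Squares are males, circles are females and bars are litter means of 2 libraries. E2f1, E2f2, E2f7, E2f8 and Rbl1 were lowest in litter 3, where Rbl2 was highest, while E2f4 and E2f5 were nearly level.

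Litters differed in these genes, and sexes did not measurably. In edgeR's quasi-likelihood test of any difference between litters, 7 of the 10 genes passed an adjusted p of 0.05 (Benjamini-Hochberg over all tested genes), where 32.1% of all tested genes did. The 7 were E2f1, E2f2, E2f3, E2f7, E2f8, Rbl1 and Rbl2, and the 3 that did not pass were E2f4, E2f5 and Rb1. Without litter 3, E2f3 and Rbl1 alone passed, 2 of 10, where 13.7% of tested genes did. The pattern therefore rested in large part on litter 3. A litter here is 2 hearts, 1 of each sex.

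Among the activators, E2f2 moved most. E2f2 had 3.49 CPM in the male and 3.25 in the female one of litter 1, 2.2 and 2.56 in litter 2, 0.911 and 1.03 in litter 3, and 2.18 and 1.68 in litter 4. Both libraries of litter 1 were above and both of litter 3 below all others. Its counts ran from 15 to 87, the fewest of the 10 genes. The litter means were 3.37 ± 0.172, 2.38 ± 0.254, 0.972 ± 0.0856 and 1.93 ± 0.353 CPM (SD, n = 2). Against the mean of the other 3 litters, E2f2 was 2.06-fold higher in litter 1 (log2 1.04, SE 0.20, adjusted p = 0.00603 by edgeR) and 2.58-fold lower in litter 3 (log2 -1.37, SE 0.26, adjusted p = 0.00258 by edgeR).

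E2f1, the activator most tied to S phase entry, kept the same order. Its CPM were 19.9 and 18.3 in the male and female of litter 1, 12.2 and 17.5 in litter 2, 7.16 and 8.94 in litter 3, and 15.6 and 10.5 in litter 4. Litter 1 stood above and litter 3 below the other 6 libraries, while litters 2 and 4 overlapped, with sexes ordered differently in each. E2f1 was 1.66-fold higher in litter 1 (log2 0.73, SE 0.16, adjusted p = 0.0102 by edgeR) and 1.94-fold lower in litter 3 (log2 -0.95, SE 0.19, adjusted p = 0.00285 by edgeR).

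The 2 atypical repressors shared the direction of E2f1 and E2f2. E2f7 had 5.7 and 5.06 CPM in the male and female of litter 1, 3.24 and 6.7 in litter 2, 1.43 and 2.06 in litter 3, and 2.57 and 3.23 in litter 4. Litter 3 was below all others, but the highest single value was the female of litter 2, so litter 1 did not stand clear. E2f7 fell 2.45-fold in litter 3 (log2 -1.29, SE 0.27, adjusted p = 0.00399 by edgeR) and was 1.89-fold higher in litter 1 (log2 0.92, SE 0.21, adjusted p = 0.0157 by edgeR). E2f8, its close relative, had 8.99 and 8.93 CPM in litter 1, 7.49 and 9.71 in litter 2, 5.03 and 5.3 in litter 3, and 6.7 and 6.13 in litter 4. The span was narrower than for E2f7, with litter 3 again below every other library. E2f8 was 1.53-fold lower in litter 3 (log2 -0.61, SE 0.15, adjusted p = 0.00906 by edgeR) and 1.36-fold higher in litter 1 (log2 0.45, SE 0.13, adjusted p = 0.0388 by edgeR). The call in litter 1 was lost with DESeq2 (adjusted p = 0.135) and in 7 of 11 fits that left out a library or litter. An opposite-strand gene, Gm2788, shares 7.85% of the 100-base windows of E2f8 but had only 4 to 10 counts per library.

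The pocket proteins divided 3 ways. Rbl1 went with E2f1 and E2f2, at 22.0 and 21.6 CPM in the male and female of litter 1, 15.9 and 19.1 in litter 2, 8.81 and 6.95 in litter 3, and 15.4 and 9.91 in litter 4. Litter 1 was above and litter 3 below the other 6 libraries. Rbl1 was 1.82-fold higher in litter 1 (log2 0.86, SE 0.13, adjusted p = 0.00162 by edgeR) and 2.12-fold lower in litter 3 (log2 -1.09, SE 0.16, adjusted p = 0.000479 by edgeR). Rbl2 went the opposite way in litter 3, with 49.3 and 46.3 CPM in litter 1, 44.7 and 49.9 in litter 2, 68.7 and 80.8 in litter 3, and 45.5 and 48.7 in litter 4. The libraries of litters 1, 2 and 4 lay within a narrow overlapping band and both of litter 3 lay clear above it. Rbl2 was 1.57-fold higher in litter 3 (log2 0.65, SE 0.071, adjusted p = 5.64e-05 by edgeR). Without litter 3 its range over litters was 0.02 on the log2 scale (adjusted p = 0.98 by edgeR). The calls of Rbl1 in litters 1 and 3 and of Rbl2 in litter 3 were kept in all 11 fits that left out a library or litter. The opposite-strand neighbours Aktip and Gm45464 share 6.69% of the windows of Rbl2, and Aktip itself had a log2 difference of -0.13 in litter 3 (adjusted p = 0.234 by edgeR).

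The ratio of Rbl1 to Rbl2 counts needs no scaling between libraries. It was 0.447 and 0.465 in the male and female of litter 1, 0.356 and 0.382 in litter 2, 0.128 and 0.086 in litter 3, and 0.337 and 0.203 in litter 4. The highest library was 5.41-fold above the lowest, and litter 3 lay below all others. As shares of the summed pocket protein CPM per kilobase, Rbl1 took 25.4 ± 0.492, 21.8 ± 1.22, 8.32 ± 1.96 and 17.1 ± 4.58% in litters 1 to 4 (SD, n = 2), and Rbl2 took 44.1 ± 0.395, 46.9 ± 0.222, 62.0 ± 2.72 and 50.9 ± 4.41%. The share of Rb1 stayed between 29.2 and 32.3% in all 8 libraries. Likewise the ratio of E2f1 to E2f4 counts was 0.714 ± 0.075 in litter 1 and 0.308 ± 0.0757 in litter 3, with 0.506 ± 0.148 and 0.476 ± 0.154 in litters 2 and 4.

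**Figure D2:**
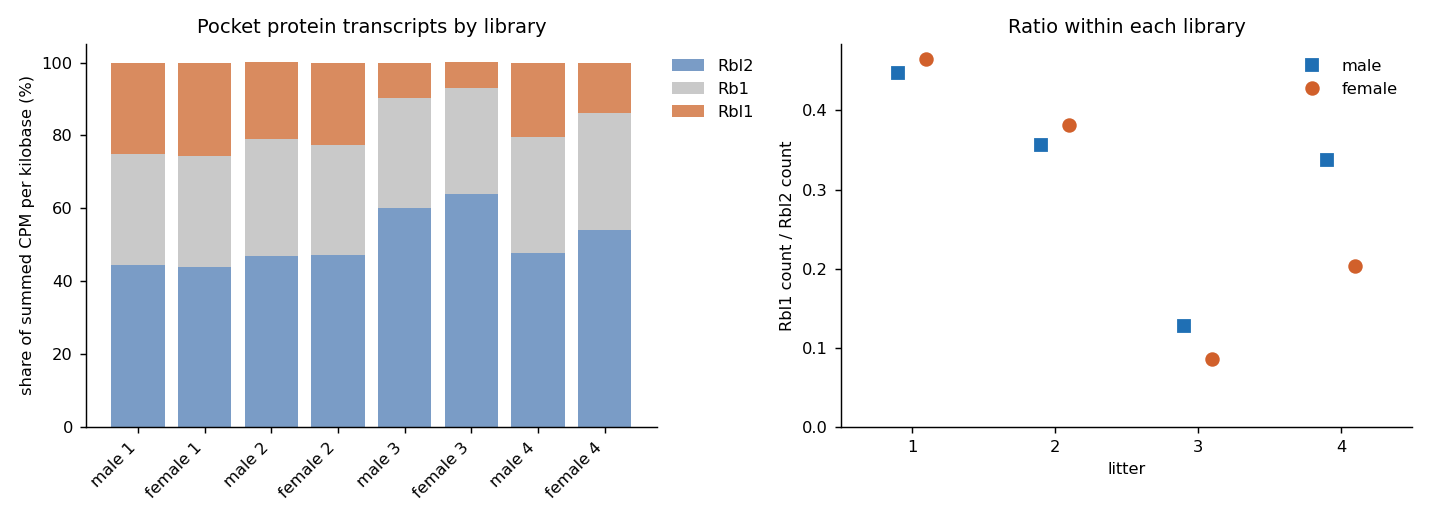
Left, share of the summed pocket protein CPM per kilobase (vertical axis, percent) taken by Rbl2, Rb1 and Rbl1 in each of the 8 libraries. Right, ratio of Rbl1 to Rbl2 counts (vertical axis) by litter, squares for males and circles for females. Rbl1 took 8.32% and Rbl2 62.0% of the sum in litter 3, and the ratio there was 0.128 and 0.086.

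E2f4, E2f5 and Rb1 did not pass the litter test. E2f4 had 25.9 and 27.7 CPM in the male and female of litter 1, 30.4 and 28.7 in litter 2, 28.1 and 24.7 in litter 3, and 26.8 and 28.6 in litter 4. Both libraries of litter 2 were the highest, by a small margin, and litters 1, 3 and 4 overlapped. Its range over litters was 0.16 on the log2 scale (adjusted p = 0.488 by edgeR), and in litter 3 the difference was -0.08 with a 95% interval from -0.26 to 0.1. E2f5, the other canonical repressor, ran only from 4.05 to 4.62 CPM, a coefficient of variation of 5.44% over 8 libraries. Its range over litters was 0.10 (adjusted p = 0.96 by edgeR), although with 61 to 110 counts per library its interval in litter 3, from -0.29 to 0.41, was wider. Rb1 had 27.1 and 25.7 CPM in litter 1, 24.5 and 25.5 in litter 2, 27.5 and 29.4 in litter 3, and 24.1 and 23.0 in litter 4. Both of its litter 3 libraries were the highest, yet the margin was small and the difference of 0.19 (95% interval 0.02 to 0.35) had an adjusted p of 0.0824 by edgeR. When libraries were scaled by their totals alone, its range over litters became 0.36 and passed, with an adjusted p of 0.0454 by edgeR.

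E2f3 was the activator that did not follow the others. It had 21.8 and 20.9 CPM in the male and female of litter 1, 22.4 and 19.0 in litter 2, 23.2 and 22.2 in litter 3, and 17.4 and 12.9 in litter 4. Litter 4 was below every other library, both of litter 3 were above both of litter 1, and litter 2 overlapped each of these. E2f3 was 1.43-fold lower in litter 4 (log2 -0.52, SE 0.096, adjusted p = 0.00842 by edgeR). That call rested on the female of litter 4, since without it the difference was -0.37 (adjusted p = 0.117 by edgeR). In litter 3 E2f3 was 1.21-fold higher (log2 0.27, SE 0.092, adjusted p = 0.0452 by edgeR), against the 1.94-fold and 2.58-fold lower levels of E2f1 and E2f2. This small difference passed in 4 of 11 fits that left out a library or litter, and not with DESeq2 (adjusted p = 0.125). E2f3 is read from 2 RefSeq starts, which the counts do not separate.

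Counted by litter, 5 of the 10 genes were higher in litter 1 (E2f1, E2f2, E2f7, E2f8 and Rbl1), where 7.86% of all tested genes were. The same 5 were lower in litter 3, where 14.8% of tested genes were lower, and Rbl2 and E2f3 were higher there, where 13.6% were. In litter 4 E2f3 alone was lower, against 5.8% of tested genes. None of the 10 passed in litter 2 by edgeR, where 4.18% of tested genes passed in either direction, although 4 had an unadjusted p under 0.05. These were E2f7 at a log2 difference of 0.68 (95% interval 0.21 to 1.16), Rbl1 at 0.44 (0.14 to 0.74), E2f8 at 0.36 (0.08 to 0.65) and Rbl2 at -0.22 (-0.39 to -0.06), with adjusted p from 0.106 to 0.164. By non-overlap of single libraries, both of litter 3 were below the other 6 for 5 genes, against 16.4% of all tested genes, and above them for Rb1 and Rbl2, against 15.1%. Both libraries of litter 1 were above the other 6 for E2f1, E2f2 and Rbl1, against 8.89%. These litter comparisons share libraries and are not independent of each other. Without litter 3, litter 1 was called higher for Rbl1 alone (log2 0.56, adjusted p = 0.0279 by edgeR), where 4.13% of tested genes were called higher, and E2f1 stood at 0.46 with an adjusted p of 0.0959. Without the male of litter 3, 2 of the 5 remained lower there (E2f7 and Rbl1), and without its female 4 did, E2f8 being lost. The share of all tested genes called lower there was then 8.02% and 6.96%. Leaving out the male of litter 1 kept 1 of the 5 calls in that litter (Rbl1), and leaving out its female kept 2 (E2f7 and Rbl1). The share of all tested genes called higher there was then 1.62% and 1.98%. In such fits a litter is represented by 1 library, which is assumed to vary like the others.

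**Figure D3:**
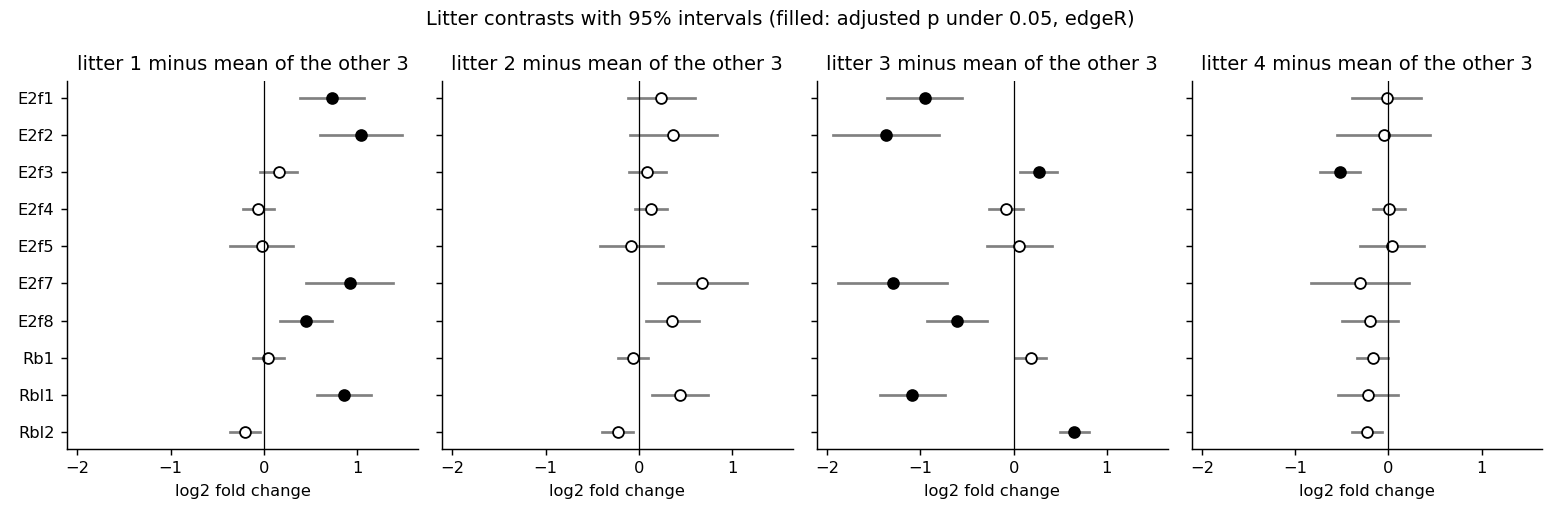
Log2 fold change of each litter against the mean of the other 3 (horizontal axes) for the 10 genes, with 95% intervals as lines. Filled circles had an adjusted p under 0.05 by edgeR. E2f1, E2f2, E2f7, E2f8 and Rbl1 were above 0 in litter 1 and below 0 in litter 3, Rbl2 was above 0 in litter 3 at 0.65, and E2f3 was below 0 in litter 4 at -0.52.

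Cell types other than cardiomyocytes varied between the same litters. In litter 3, where 14.8% of all tested genes were lower, so were 6 of 8 fibroblast, 7 of 8 endothelial and 3 of 5 mural markers. Lower there too were 5 of 10 cardiomyocyte markers. In litter 1, where 7.86% of all tested genes were higher, 3 of 8 fibroblast, 4 of 10 cardiomyocyte and 0 of 8 endothelial markers were higher by edgeR. The median log2 difference there was 0.36 for the fibroblast, 0.15 for the cardiomyocyte and -0.01 for the endothelial list. In litter 2, 8 of 8 endothelial and 6 of 8 fibroblast markers were higher, at a median log2 difference of 2.11 and 0.97. Of all tested genes, 4.18% passed in litter 2 in either direction. In litter 4, where E2f3 was low, 6 of 8 fibroblast markers were higher, at a median of 0.62. There 4 of 10 cardiomyocyte markers were higher and 2 lower, the 4 no longer when libraries were scaled by their totals alone. Of the 13771 tested genes, 1447 passed in litter 4 in either direction. The female library of litter 3 was the shallowest of all. There Rbl1 was lower in the female than in the male, and E2f1, E2f2, E2f7 and E2f8 were lower in the male. The part of depth and of these cell types in the levels of the 10 genes was not tested. In bulk samples, fewer cells of a type and less RNA per cell cannot be told apart, and the same holds for fewer dividing cells.

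Dimerization partners of the E2Fs were also divided. Tfdp1, the main DNA-binding partner, was 1.25-fold lower in litter 3 (log2 -0.32, SE 0.074, adjusted p = 0.00746 by edgeR). Tfdp2, the alternative partner, had 61.3 and 54.5 CPM in the male and female of litter 1, 51.4 and 57.8 in litter 2, 76.9 and 104 in litter 3, and 59.4 and 58.1 in litter 4. Both libraries of litter 3 were above the rest, as for Rbl2, and Tfdp2 was 1.57-fold higher there (log2 0.65, SE 0.094, adjusted p = 0.000418 by edgeR). E2f6, a repressor that works without pocket proteins, was lower in litter 3 (log2 -0.39, SE 0.068, adjusted p = 0.00161 by edgeR) and higher in litter 1 (log2 0.23, adjusted p = 0.0376 by edgeR), the latter not with DESeq2, with no sex term or in 7 of 11 fits that left out a library or litter. Without the female of litter 3, Tfdp1 no longer passed there, while Tfdp2 and E2f6 passed without either library.

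Of 7 tested genes of the MuvB core and its Myb partners, 3 were lower in litter 3 and 3 were higher in litter 1, where 14.8% and 7.86% of all tested genes were, with list medians of -0.22 and 0.17 on the log2 scale. All tested genes had a median of 0.00 in each of these comparisons. The 3 were Lin54, the DNA-reading subunit (-0.35 in litter 3), Mybl1 (-0.58) and Mybl2, which recruits the complex to mitotic genes (-0.95). The calls of Mybl2 and Mybl1 in litter 3 were lost with DESeq2, as was that of Lin54, and 0 of the 7 passed by edgeR without the male or without the female of that litter. In litter 1, 0 of the 7 passed by edgeR without its male or without its female, and 2 passed with DESeq2. MuvB subunits Lin9, Lin37 and Lin52 and the histone chaperone Rbbp4 did not pass in litter 3, with log2 differences of -0.22, 0.12, 0.23 and -0.02.

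Of the kinases that phosphorylate pocket proteins and their cyclins, 4 of 9 tested genes in litter 3 were lower, against 14.8% of all tested genes, and 0 higher by edgeR: Ccna2, the S phase cyclin (-1.79, SE 0.14), Ccnd1 (-0.93), Ccne2 (-0.87) and Ccne1 (-0.56). Cdk2, Cdk4 and Cdk6 had differences of -0.16, -0.17 and -0.11 there and did not pass. Ccne1 was not called in litter 3 or 1 with DESeq2. In litter 1, 5 of 9 were higher, against 7.86% of all tested genes, and Ccnd3 was lower at -0.22. The 5 were Ccna2 at 1.31, Ccne2 at 0.99, Ccne1 at 0.54, Ccnd2 at 0.37 and Cdk6 at 0.33. In litter 4, where E2f3 was low, Cdk6 (-0.55, SE 0.06) and Ccnd2 (-0.29, SE 0.067) were low as well. In litter 2, where 4.18% of all tested genes passed in either direction, 3 of the 9 were higher. They were Ccnd1 at 1.51 (SE 0.20), its largest difference, Ccna2 at 0.47 and Cdk6 at 0.33. Without the male of litter 3, Ccna2 and Ccnd1 passed as lower there, and without the female Ccna2 and Ccne2. Without the male of litter 1, Ccna2 and Ccnd2 passed as higher there, and without the female Ccna2 alone.

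Among 5 tested CDK inhibitors, 1 was higher and 2 were lower in litter 3, where 13.6% and 14.8% of all tested genes were. Cdkn1b (p27), which binds cyclin-CDK complexes and holds cells in rest, had 63.2 and 67.6 CPM in the male and female of litter 1, 58.8 and 71.0 in litter 2, 88.9 and 96.0 in litter 3, and 68.6 and 63.8 in litter 4. It was 1.41-fold higher in litter 3 (log2 0.50, SE 0.072, adjusted p = 0.000434 by edgeR), the litter in which Rbl2 was high. Cdkn2c (-0.75, adjusted p = 0.00561 by edgeR) and Cdkn2d (-0.56, adjusted p = 0.00044 by edgeR), both of the INK4 family that blocks Cdk4 and Cdk6, were lower there, while Cdkn1a at -0.13 and Cdkn1c at 0.22 did not pass. In litter 1, where 7.86% of all tested genes were higher, Cdkn1a, Cdkn2c and Cdkn2d were higher at 0.34, 0.74 and 0.34. Cdkn1c (p57) was lower there at -0.76. Cdkn1b and Cdkn2d passed in litter 3 without either of its libraries and Cdkn2c only with the male kept. In litter 1, 0 of the 3 higher calls held by edgeR without the male and 1 (Cdkn2c) without the female, and Cdkn1a was not called by DESeq2. The lower call of Cdkn1c there was lost without the male and kept without the female. Cdkn2a and Cdkn2b had too few counts to be tested.

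Among 10 corepressors that pocket proteins recruit, 3 were higher and 0 lower in litter 3 by edgeR, where 13.6% of all tested genes were higher, with a list median of -0.01. Kdm5a, a histone demethylase first found as an Rb1 binding protein, had a difference of 0.44 (SE 0.059, adjusted p = 0.000292 by edgeR), and Arid4a, another Rb1 binding protein, one of 0.29 (SE 0.07, adjusted p = 0.00979 by edgeR). Kdm5a passed without either library of litter 3 and Arid4a not without the female, which left 1 of the 10. Among 5 genes of E2F and cyclin turnover, 2 were higher in litter 1, where 7.86% of all tested genes were, with a median of 0.58. In litter 3, 4 were lower and 0 higher, where 14.8% of all tested genes were lower, with a median of -0.98. They were the cyclin F gene Ccnf (-1.94, SE 0.35), Fbxo5 (-1.07, SE 0.22), Skp2 (-0.98, SE 0.2) and Fbxw7 (-0.38, SE 0.062). Without the male of litter 3, 2 of these passed, Ccnf and Fbxw7.

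Known E2F targets of the G1/S transition followed E2f1, E2f2 and Rbl1 across litters. Of 32 tested, 29 were lower and 0 higher in litter 3 by edgeR, where 14.8% and 13.6% of all tested genes were. The list median there was -0.85, against 0.00 for all tested genes. In litter 1, 27 were higher and 0 lower, where 7.86% of all tested genes were higher, with a median of 0.66. Litter 2, where 4.18% of all tested genes passed in either direction, had 1 call and litter 4 none among them. Among those with the widest range were Rrm2 (-1.28 in litter 3 and 0.96 in litter 1), which makes deoxynucleotides, and the replicative helicase subunits Mcm5 (-1.24 and 0.78) and Mcm2 (-1.22 and 0.75). Without litter 3, 9 of the 32 were called higher in litter 1, where 4.13% of all tested genes were, with a median of 0.38. With litter 1 represented by 1 library fewer of them were called, as among all tested genes. The list median was 0.59 without the male of litter 1 and 0.67 without its female.

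Mitotic (G2/M) genes, which are read through the CHR and DREAM more than through E2F words, had larger medians. All 20 tested were lower in litter 3, with a median of -1.8, and all 20 were higher in litter 1, with a median of 1.31. Of all tested genes, 14.8% were lower in litter 3 and 7.86% higher in litter 1. In litter 2, where 4.18% of all tested genes passed in either direction, 10 were higher, and in litter 4 none passed by edgeR. Ccnb1 (-2.42 in litter 3, SE 0.2), Cdca8 (-2.23, SE 0.17), Kif20a (-2.11, SE 0.13) and Cenpf (-2.01, SE 0.12) had the widest ranges. Without litter 3, 19 of the 20 were still higher in litter 1, where 4.13% of all tested genes were, with a median of 0.77.

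**Figure D4:**
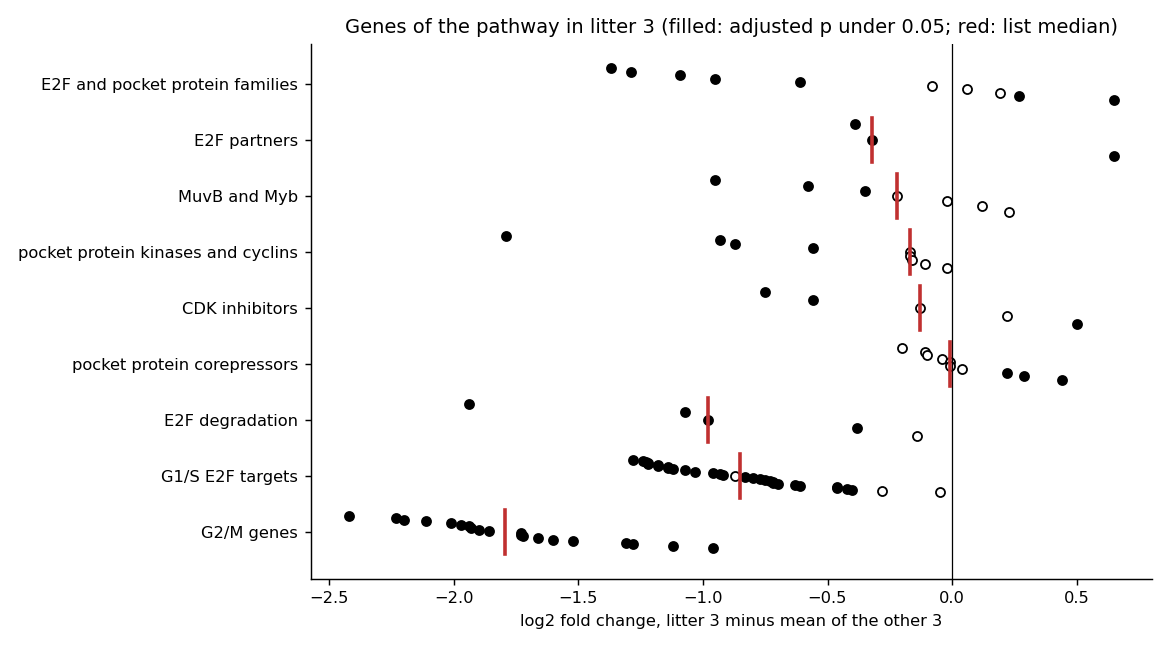
Log2 fold change in litter 3 against the mean of the other 3 litters (horizontal axis) for each gene of the 2 families and of 8 lists (vertical axis). Filled circles had an adjusted p under 0.05 by edgeR, and red bars are list medians. G1/S targets centred on -0.85 and G2/M genes on -1.8, while Rbl2 and Tfdp2 stood at 0.65 and Cdkn1b at 0.50.

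The promoter words divided the same lists. Because these lists were drawn up as known E2F targets and as mitotic genes, this division describes them and is no separate test. An E2F word stood in 12 of 26 G1/S targets with a RefSeq window (46.2%) and in 1 of 16 G2/M genes (6.25%). The CHR stood in 3 of 26 (11.5%) and in 12 of 16 (75.0%). Over all tested genes with a window, 4.7% held an E2F word and 13.9% the CHR, so the 6.25% and 11.5% were near those shares. Over all tested genes with a window, 15.7% of the 464 with an E2F word were higher in litter 1 and 3.88% lower, against 7.93% and 6.02% of the 9402 without it. In litter 3, 19.8% of those with the word were lower and 11.2% higher, against 15.3% and 14.4% of those without. In litter 2, 1.51% with the word and 3.29% without were higher, and in litter 4 3.02% and 5.0%. The median difference of genes with the word was close to 0 in litters 1 and 3, at 0.043 and -0.045 on the log2 scale. These shares are descriptions, and the genes are not independent of each other.

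The genes closest to E2f2 and to Rbl2 were found by the root mean square difference of their log2 CPM over the 8 libraries, each centred on its own mean. Among the 5 closest to E2f2 were Dbf4 (0.089), Spc24 (0.096), Neurl1b (0.117) and Atad2 (0.119). Dbf4 activates the kinase that fires replication origins and Spc24 is a kinetochore protein. Closest to Rbl2 were Fbxl20 (0.046), Zfp879 (0.052), Tfdp2 (0.074), Ncam1 (0.077) and Fam214a (0.08). The E2F partner Tfdp2 was thus the third nearest of all tested genes to Rbl2.

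None of the 10 genes differed between the sexes by edgeR after adjustment, where 0.0436% of all tested genes passed. The same was found with litter as a block, where 0.211% passed. Male and female means were 13.7 ± 5.38 and 13.8 ± 4.78 CPM for E2f1, 27.8 ± 1.96 and 27.4 ± 1.87 for E2f4, 25.8 ± 1.74 and 25.9 ± 2.63 for Rb1, and 52.1 ± 11.3 and 56.4 ± 16.3 for Rbl2 (SD, n = 4). In every gene the ranges of the sexes overlapped. With litter as a block the 95% interval of the log2 difference, male minus female, ran from -0.13 to 0.17 for E2f4, from -0.14 to 0.14 for Rb1, from -0.34 to 0.29 for E2f1 and from -0.12 to 0.42 for Rbl1. The interval was widest for E2f7, from -0.85 to 0.02, around a difference of -0.41 (adjusted p = 0.453 by edgeR). E2f3 was higher in the male of each litter, a difference of 0.19 with an interval from 0.01 to 0.36, and it alone had an unadjusted p under 0.05 (0.0368, adjusted p = 0.409 by edgeR). Without the block no gene had one, and the difference of E2f3 was 0.18 with an interval from -0.19 to 0.54. Without the block the p-values measure the spread among 8 hearts. With it they measure the spread of the male minus female difference over 4 litters.

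**Figure D5:**
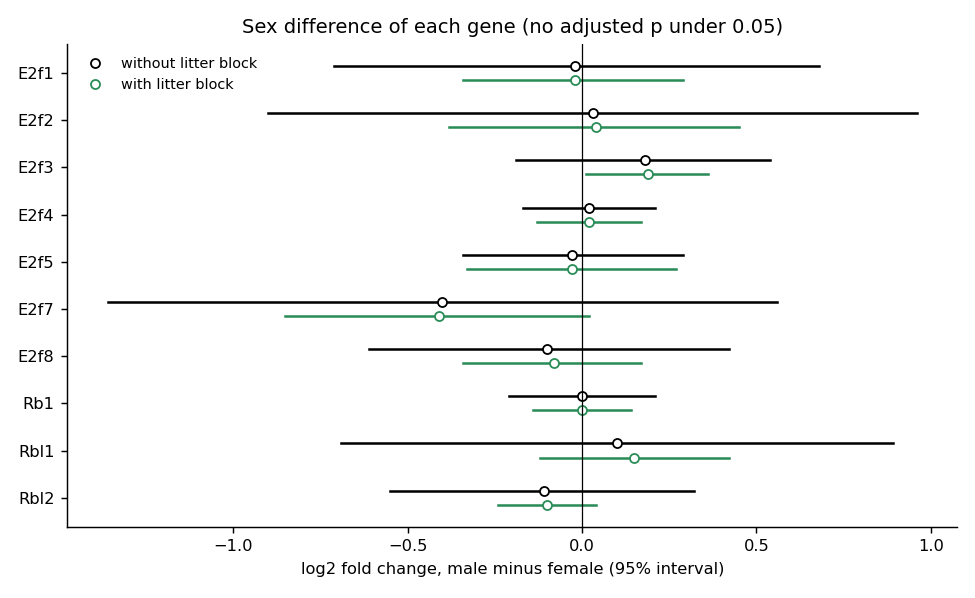
Log2 fold change, male minus female (horizontal axis), of each of the 10 genes, with 95% intervals as lines, without litter as a block (black) and with it (green). No adjusted p was under 0.05, and intervals narrowed with the block, for example for E2f1 from -0.71 to 0.68 without it to -0.34 to 0.29 with it.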

How the data were processed

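The deposited table holds whole-number read counts, not normalized, in 8 columns, per the file headers, and its 48440 entries are named by gene symbol, of which 24853 had a count. STAR 2.7.3a and mm10 are named in the submitters' processing notes, while the counter, its annotation and its strand setting are not given in the sources used here. The labels' protocols name a stranded total RNA kit, and the labels give the molecule as polyA RNA. No column belonged to another series, and 27 symbols were date-like.

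Counts were analysed in R 4.3.3 with edgeR 4.0.16 (filterByExpr, TMM scaling, quasi-likelihood F tests), with DESeq2 1.42.0 as an alternative, and in pandas 2.3.3. The sex test had no litter term, and the litter test had sex as a term, followed by each litter against the mean of the other 3. P-values were adjusted by Benjamini-Hochberg over 13771 genes, with a threshold of 0.05. The labels state that a number is a litter, which pairs a male with a female: deviations from the sex means correlated at 0.367 to 0.696 within litters and at -0.482 to 0.27 between them. Libraries of the same sex differed beyond sampling noise.

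Positions and lengths come from GENCODE M21 on GRCm38 (46368 entries matched by symbol), on which E2f1 lies at chr2:154559407-154569892, E2f2 at chr4:136172394-136196057, E2f3 at chr13:29906575-29986063, E2f4 at chr8:105297663-105305370, E2f5 at chr3:14578641-14606309, E2f7 at chr10:110745439-110787384, E2f8 at chr7:48866429-48881596, Rb1 at chr14:73183673-73325822, Rbl1 at chr2:157145893-157204534 and Rbl2 at chr8:91070057-91123844. Promoters come from RefSeq on GRCm38.p6.

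The sex test and the test of any litter difference were tried on simulated data for 13771 genes with 200 changed by 2 on the log2 scale. The sex test recovered 98% with 4.85% of calls false, and the litter test 99% with 3.88% false. That change exceeds every single-litter difference of the 10 genes (largest -1.37), so recovery of smaller ones was not tested. Single-litter comparisons were not simulated, and the simulated sex data held no litter differences. The genes and lists were chosen with earlier results of these data known. All 10 genes, every tested gene of 4 small lists, the genes of other lists with the widest range over litters (at most 4) and the 5 nearest genes to 1 E2F and 1 pocket protein could be named. One gene that this rule names is not reported here. Alternatives were the block, other scaling, DESeq2, other filters, no sex term, other gene lengths and leaving out each library or, added after seeing the data in part, each litter.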

Additional observations from a re-analysis of the deposited data

Results flagged for a closer look

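The level of Rbl2 in the female of litter 3, 80.8 CPM, stood apart from the other 3 females, which lay between 46.3 and 49.9 CPM. The gap to the nearest of them was 0.897 of the range of the 4 females, above the 95% critical value of Dixon's test for 4 values. The male of litter 3 was also the highest of its sex, at 68.7 CPM. In all, 22 groups of 4 libraries were examined in this way, and 1 in 20 is reached by chance, or about 1.1 groups.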

How the results depend on the processing

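Depth limits E2f2 (15 to 87 counts) and E2f7 (30 to 149 counts) most, and 2 hearts per litter limit every litter value. With litter as a replicate block, which the pairing allows, 29 genes differed by sex in place of 6, and the difference of Rb1 was 0.0 with its sign turned; no call among the 10 genes changed. Genes of litter 2 numbered 575, against 345 with a mean of at least 50 counts, 1249 with no filter and 365 with no sex term, and those of litter 4 numbered 1447, against 834 with no sex term. A mean of at least 50 counts left out E2f2. Leaving out a library or litter gave 1898 to 4586 genes by litter, 359 to 2906 for litter 1, 153 to 1407 for litter 2, 1704 to 4177 for litter 3 and 322 to 1984 for litter 4. Of the 10 genes, 2 to 7 then passed by litter, 1 to 5 were higher in litter 1 and 2 to 5 lower in litter 3, with shares of all tested genes of 13.7 to 33.4%, 1.62 to 11.5% and 6.96 to 15.5%. With DESeq2, 13 of 77 calls among the 10 genes and the lists were lost in litter 1 and 13 of 102 in litter 3. The male minus female difference ranged from -0.25 to 0.20 for E2f1, -0.29 to 0.30 for E2f2, 0.03 to 0.26 for E2f3, -0.04 to 0.05 for E2f4, -0.07 to 0.01 for E2f5, -0.83 to -0.11 for E2f7, -0.24 to 0.04 for E2f8, -0.05 to 0.06 for Rb1, -0.12 to 0.37 for Rbl1 and -0.27 to 0.10 for Rbl2. Beyond fewer samples or genes in a fit, the cause was not tested.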
